A study of Mus musculus with 9 samples.

Results

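The 78 genes described here encode mitochondrial ribosomal proteins. They are the rows of the count table whose identifier belongs to a gene symbol made of Mrpl or Mrps, a number and at most 1 letter, out of 52661 gene rows in all. Of these symbols 49 begin with Mrpl and 29 with Mrps. All 78 passed the filter on low counts, which left 18408 genes for testing, and their counts in a single library ran from 136 to 4505. The genes were measured by RNA sequencing in 9 libraries of C57BL/6 mouse embryonic fibroblasts immortalised with T/t antigen. The 3 groups of 3 libraries were Ctr1 -/- cells given bathocuproine disulfonic acid (BCS), a copper chelator, Ctr1 -/- cells without it, and wild type cells. BCS was given at 500 µM for 48 hours per the sample labels, whereas the series record has 500 mM. The groups are called BCS, Ctr1-null and wild type cells below. Ctr1, the copper importer of the plasma membrane, is the product of Slc31a1. There was no wild type group with BCS, and the labels do not say whether the libraries of a group came from separate cultures or how many clones the Ctr1-null line holds. The p-values therefore measure only the spread between these libraries, which may be technical, and loss of Ctr1 cannot be told apart from other differences between the cell lines.

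Mitochondrial ribosomes translate the few mRNAs that mitochondrial DNA encodes, which are core subunits of the respiratory chain and of ATP synthase. Their rRNAs come from mitochondrial DNA, while their proteins are encoded in the nucleus, made in the cytosol and imported. The small subunit binds and decodes the mRNA, and the large subunit forms peptide bonds and releases the new protein at the inner membrane. Copper enters this pathway downstream, at cytochrome c oxidase, which holds copper in subunits that mitochondrial ribosomes make.

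By the known makeup of the mammalian particle, 51 of the 78 genes encode large subunit proteins and 26 small subunit proteins. Mrps18a and Mrps30 carry small subunit names and sit in the large subunit. Mrps36 belongs to neither subunit, being a component of the 2-oxoglutarate dehydrogenase complex. The genes lie on 17 chromosomes, with 11 on chromosome 11, 8 on chromosome 17 and 7 on chromosome 6. Mrpl46 and Mrps11 overlap at their ends, so reads there could go to either gene. Mrpl23 has a transcribed copy, Mrpl23-ps1, that held 363 to 637 counts per library, so the share of reads assigned to Mrpl23 itself is uncertain.

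Levels are given as CPM, the count of a gene scaled to the TMM-adjusted total of its library. The targeted gene was low in both groups labelled Ctr1 -/-. Slc31a1 had 3.24, 2.54 and 1.69 CPM in BCS cells, 2.54, 3.88 and 1.40 CPM in Ctr1-null cells, and 56.1, 54.8 and 54.9 CPM in wild type cells. Library totals were 38962036 to 57206337 counts. The 9 fibroblast markers summed to 16000 to 19370 CPM in BCS, 15000 to 18080 CPM in Ctr1-null and 16100 to 18030 CPM in wild type libraries, and 6 of the 9 were above 1 CPM in all 9 libraries. The others, Thy1, Dcn and Lum, reached at most 0.496, 2.31 and 0.248 CPM. The 6 fat cell markers summed to 67.3 to 81.7 CPM in BCS, 58.7 to 85.5 CPM in Ctr1-null and 24.4 to 30.3 CPM in wild type libraries. Only 2 of the 6 were above 1 CPM in all 9 libraries. Pparg alone had means of 48.2, 52.8 and 20.5 CPM in these groups, and Adipoq and Plin1 reached at most 0.080 and 0.419 CPM. The 4 neural progenitor markers summed to 118 to 143 CPM in BCS, 170 to 199 CPM in Ctr1-null and 155 to 243 CPM in wild type libraries. The 4 muscle markers summed to 3.31 to 8.60, 1.51 to 4.32 and 0.622 to 1.08 CPM in the same groups, the 5 macrophage and blood markers to 12.5 to 22.1, 9.38 to 17.6 and 5.62 to 12.5 CPM, and the 5 epithelial markers to 128 to 164, 151 to 197 and 165 to 193 CPM. Above 1 CPM in all 9 libraries were 2 of the 4 neural progenitor, 0 of the 4 muscle, 1 of the 5 macrophage and blood and 1 of the 5 epithelial markers. Most of each sum came from 1 gene, in turn Nes, Des, Cd68 and Krt19. The 4 endothelial markers overlapped in all 3 groups, at 23.7 to 38.0 CPM over the 9 libraries, and Myod1, Sox10 and Adgre1 were at 0 in all 9. The part of these cell types in the differences below was not tested.

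The mitochondrial ribosomal protein genes were among the steadier genes of these cells. Between the highest and the lowest of the 9 libraries a member differed by a median of 1.29-fold, and by 1.14-fold to 1.68-fold over the 78 members. The same ratio had a median of 1.70 over all 18408 genes tested and of 1.45 over the 8070 tested genes whose mean level lay within the members' own range of 3.44 to 73.8 CPM. Mrpl23 set the lower end of that range, and within the range the genes were not matched to the members in level. The ratio stayed under 1.5 for 72 members, which is 92.3%, against 55.3% of the genes in that range and 37.8% of all genes tested. Together the members took 0.255% to 0.285% of the counts of a library.

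What variation there was ran through most members at once and did not follow the groups. The mean of the members, as log2 CPM relative to each gene's wild type mean, was -0.09, -0.03 and -0.14 in BCS replicates 1, 2 and 3, 0.04, -0.14 and -0.15 in Ctr1-null replicates 1, 2 and 3, and -0.12, 0.07 and 0.05 in wild type replicates 1, 2 and 3. Ctr1-null replicate 1 thus stood with wild type replicates 2 and 3, and wild type replicate 1 stood with the other two Ctr1-null libraries. Wild type replicate 1 was the lowest wild type library for 63 members, against 41.6% of all genes tested, and Ctr1-null replicate 1 was the highest Ctr1-null library for 66 members, against 37% of all genes. Among BCS libraries, replicate 2 was the highest for 58 members, against 32.9% of all genes, and replicate 3 the lowest for 54, against 36.8%. The first principal component of the members held 63.6% of their variance, against 44.5% for all genes tested, and 72 members loaded on it in one direction and 6 in the other. On the first component of all genes tested, wild type replicate 1 scored -2.41, against 72 and 66.2 for wild type replicates 2 and 3. Ctr1-null replicates 1, 2 and 3 scored 8.92, -11 and -33.6, and BCS replicates -31.2, -20.5 and -48.4. The distance of wild type replicate 1 from the other wild type libraries was thus not particular to the members. Counts of calls against wild type cells are given below with and without wild type replicate 1. That library was singled out with these values known. Leaving it out raises the wild type mean of most members, so member calls without it lean lower by construction. Leaving out any other single library gave 0 members called in Ctr1-null against wild type cells and 0 to 2 in BCS against wild type cells.

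**Figure D1:**
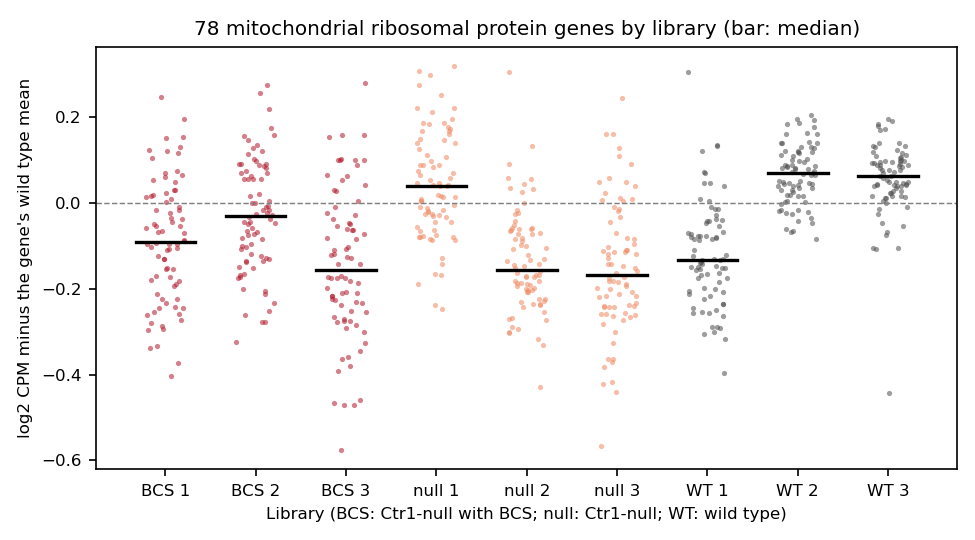
Each point is 1 of 78 genes in 1 library, plotted as log2 CPM minus the gene's wild type mean, and black bars are medians. The medians of Ctr1-null replicate 1 (0.04) and wild type replicates 2 and 3 (0.07 and 0.06) lay above 0, and those of the other 6 libraries lay between -0.17 and -0.03.

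Levels differed among the members far more than among the libraries. Per kilobase of the longest protein-coding transcript, the mean level over the 9 libraries had a median of 21.6 CPM per kilobase, and the highest member was 19.9 times the lowest. The highest per-length levels were those of Mrps6, a small subunit protein beside bacterial S6, at 87.3 CPM per kilobase, the zinc-ribbon type protein Mrpl33 at 82.0, Mrpl42 at 71.7, Mrps21 at 67.3 and Mrps18b at 57.9. Exons of Mrps6 overlap those of the inositol transporter gene Slc5a3, so its level may hold reads of that gene. The lowest were Mrpl1, the protein of the mobile stalk at the tRNA exit, at 6.14 CPM per kilobase, Mrpl57 at 6.14, Mrps35 at 4.88, Mrpl23 at 4.68 and Mrpl48 at 4.38. With the mean length of a gene's protein-coding transcripts in place of the longest, Mrpl48 was at 12.5 and Mrps35 at 9.04 CPM per kilobase, and Mrps18b stood first at 87.6, just above Mrps6 at 87.3. The order at both ends thus depends on the transcript lengths taken.

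**Figure D2:**
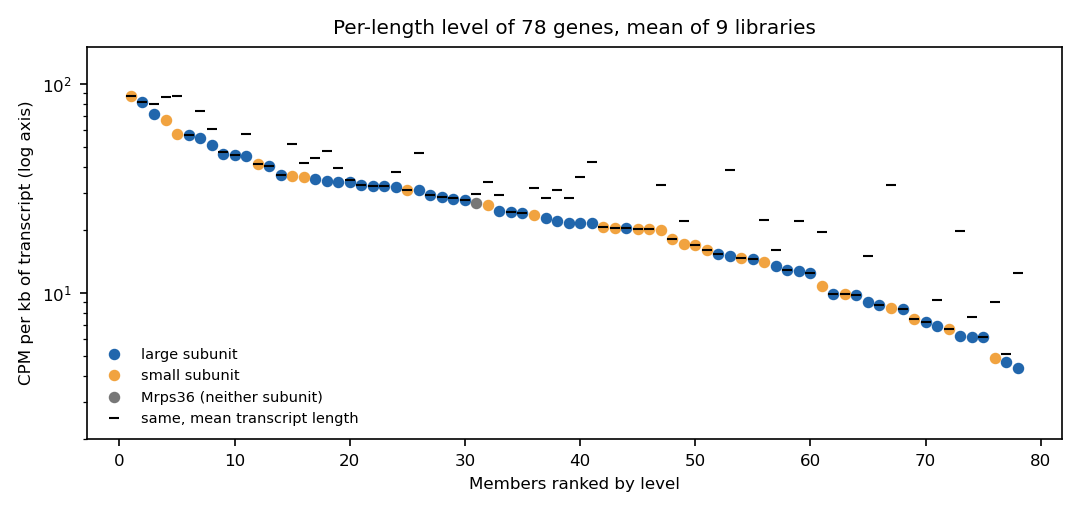
Members ranked by their mean level over 9 libraries in CPM per kilobase of the longest protein-coding transcript, on a log axis, with colours for the subunits. Black ticks give the same level with the mean transcript length, which raised the median to 28.5 CPM per kilobase from 21.6.

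The upstream sequence of 69 members was read from RefSeq (GRCm38.p6), as windows of 250 bases before to 50 bases after the annotated start. Nuclear genes for mitochondria are known to be bound by ETS factors such as GABP, by NRF1 and by YY1, and the letters of such motifs were searched on both strands. The ETS motif CCGGAAG was in the windows of 26 members, 37.7% of those matched, against 9.93% of all 27025 genes in the RefSeq table and 18.2% of the tested genes found there. The YY1 motif AAGATGG was in 13 members (18.8%), against 7.28% of all genes and 7.98% of tested genes. The NRF1 core GCATGCG was in 8 members (11.6%), against 4.01% and 6.58%. In all, 38 of the 69 members held at least 1 of these 3 motifs. The E-box CACGTG was in 7.25% of members, against 8.09% of all genes and 11.1% of tested genes, and CCAAT was in 39.1%, against 41.1% and 42.4%. The GC box GGGCGG was in 49.3% of members, more than the 38.2% of all genes and less than the 64.9% of tested genes. Members with and without the ETS motif had a median log2 fold change of -0.05 and -0.11 in BCS against wild type cells, and of -0.10 and -0.08 in Ctr1-null against wild type cells. These matches are letters in a window and not sites of binding.

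The windows of 3 members are shown: Mrpl50, the gene that passed the test in BCS cells, Mrpl9, the member with the lowest fold change in Ctr1-null cells, and Mrps12, which held 4 of the 6 motifs. They lie at chr4:49521034-49521333 on the minus strand, chr3:94443086-94443385 on the plus strand and chr7:28741772-28742071 on the minus strand. Each is written 5′ to 3′ on the gene's own strand, and capitals mark the letters of any of the 6 motifs on either strand.
Mrpl50: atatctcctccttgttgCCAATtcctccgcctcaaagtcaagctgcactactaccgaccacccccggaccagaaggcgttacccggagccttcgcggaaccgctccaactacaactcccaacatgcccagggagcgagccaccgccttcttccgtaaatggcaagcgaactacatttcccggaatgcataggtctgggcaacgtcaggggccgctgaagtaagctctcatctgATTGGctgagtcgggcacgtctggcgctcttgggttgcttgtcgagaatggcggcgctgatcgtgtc
Mrpl9: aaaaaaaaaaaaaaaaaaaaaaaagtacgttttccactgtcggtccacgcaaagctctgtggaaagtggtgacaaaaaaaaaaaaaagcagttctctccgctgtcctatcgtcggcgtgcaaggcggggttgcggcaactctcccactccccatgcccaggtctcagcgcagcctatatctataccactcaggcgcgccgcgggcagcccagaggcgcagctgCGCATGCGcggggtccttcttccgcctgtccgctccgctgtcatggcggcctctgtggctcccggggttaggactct
Mrps12: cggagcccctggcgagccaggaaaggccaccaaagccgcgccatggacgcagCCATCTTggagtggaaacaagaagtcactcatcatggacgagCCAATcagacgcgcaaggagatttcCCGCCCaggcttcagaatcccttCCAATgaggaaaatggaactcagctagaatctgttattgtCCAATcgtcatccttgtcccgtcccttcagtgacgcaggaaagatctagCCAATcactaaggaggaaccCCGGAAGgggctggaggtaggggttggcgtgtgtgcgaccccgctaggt
Mrpl50 held none of the ETS, NRF1 and YY1 letters and a CCAAT on each strand. Mrpl9 held the NRF1 core on both strands, overlapping at 26 and 27 bases before the start. Mrps12 held CCAAT 4 times, the ETS motif at the start itself, and the YY1 motif 198 bases before it.

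Part of the members share their upstream region with another gene. A protein-coding gene on the opposite strand starts within 1000 bases upstream, or overlaps the start by up to 200 bases, for 23 of 78 members, which is 29.5%, against 11.4% of 14150 tested protein-coding genes. Such pairs include Mrpl50 with Zfp189, Mrps12 with Sars2, the mitochondrial seryl-tRNA synthetase gene, and Mrpl36 with Ndufs6, a complex I subunit gene. The 23 members had a median log2 fold change of -0.10 in BCS against wild type cells and the other members -0.08.

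The first comparison set Ctr1-null against wild type cells, asking what the mitochondrial ribosome genes did without the copper importer. No member passed the test, and 76 of 78 members had a 95% interval that held 0. The test was edgeR's quasi-likelihood test with Benjamini-Hochberg adjustment over 18408 genes at an adjusted p under 0.05, and it called 0 of 78 members, against 0.0109% of all genes, which is 2 genes. DESeq2 and limma-voom called 0 members as well. At an unadjusted p under 0.05 there were 2 members, against 17.6% of all genes, and both were lower, against 8.52%. The median log2 fold change of the members was -0.10, with 59 of 78 below 0 against 49.3% of all genes. The median over all genes tested was 0.01. Fold changes ran from -0.42 to 0.17, and 84.6% of members lay within 0.2 of 0, against 52.3% of all genes. All 78 intervals at 95% lay within 1 of 0 on the log2 scale, with bounds from -0.71 to 0.59, so at this spread a 2-fold change of any member lay outside its interval.

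The call count depended on 1 library. Without wild type replicate 1, 9 members passed the test, all lower in Ctr1-null cells: Mrpl9, Mrpl13, Mrpl21, Mrpl34, Mrpl41, Mrpl57, Mrps21, Mrps26 and Mrps36. They were 11.5% of the members, and the same fit called 17.3% of all genes in either direction and 8.05% lower. Without Ctr1-null replicate 1 no member passed and the median was -0.17, against -0.16 without wild type replicate 1.

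Mrpl9, a large subunit protein at the base of the Mrpl1 stalk in bacterial ribosomes, had the lowest fold change. It was at 45.7, 40.3 and 36.7 CPM in Ctr1-null cells, and at 45.2, 59.4 and 59.5 CPM in wild type cells. Wild type replicate 1 lay inside the Ctr1-null range, and the log2 fold change was -0.42 ± 0.13 (SE; edgeR adjusted p = 0.163). Only Mrpl37 and Mrps11 had groups that did not overlap, both lower in Ctr1-null cells, against 18.1% of all genes in either direction and 8.62% lower. Mrps11, which lines the platform of the small subunit, had 16.3, 16.6 and 15.3 CPM in Ctr1-null cells and 19.2, 18.6 and 18.0 CPM in wild type cells, a log2 fold change of -0.21 ± 0.10 (edgeR adjusted p = 0.301). Its overlap with Mrpl46, at 16.6, 14.5 and 13.6 CPM in Ctr1-null cells and 14.0, 15.2 and 15.1 CPM in wild type cells, could move reads between these genes.

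Highest of the members stood Mrps10, a protein of the small subunit head, with 44.9, 40.1 and 42.1 CPM in Ctr1-null cells and 41.4, 35.9 and 36.0 CPM in wild type cells. These groups overlapped, and the log2 fold change was 0.17 ± 0.08 (edgeR adjusted p = 0.317).

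BCS against Ctr1-null cells compared libraries with and without the chelator in cells that already lacked the importer. The sample labels give hours for BCS cells only, so other differences in culture cannot be told apart from the chelator. Again no member passed the test, 0 of 78, against 0.0543% of all genes or 10 genes. DESeq2 and limma-voom called 0 members too. Mrpl50 alone had an unadjusted p under 0.05, against 14.7% of all genes in either direction and 6.37% lower. The median log2 fold change was 0.00, with 40 members below 0 and 38 above, and over all genes it was 0.00 as well, with 49.7% of genes below 0. Within 0.2 of 0 lay 94.9% of members and 56.2% of all genes. The 95% intervals again lay within 1 of 0 for 78 of 78 members, with bounds from -0.78 to 0.48.

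For 9 members, 11.5%, the BCS and Ctr1-null libraries did not overlap, against 24.3% of all genes. Lower in BCS cells were Mrpl50, Mrpl54 and Mrps18a, 3 members against 10.9% of all genes. Higher were Mrpl2, Mrpl4, Mrpl57, Mrps16, Mrps21 and Mrps31, 6 members against 13.4% of all genes. Mrpl2 and Mrpl4 encode large subunit proteins near the peptidyl transferase centre. Mrpl2 had 37.0, 36.9 and 38.0 CPM in BCS cells and 33.8, 31.0 and 35.0 CPM in Ctr1-null cells, a log2 fold change of 0.16 ± 0.08 (edgeR adjusted p = 0.36). Mrps16, a small subunit protein whose human gene is mutated in a form of oxidative phosphorylation deficiency, had 26.2, 28.1 and 28.0 CPM in BCS cells and 24.9, 23.4 and 22.1 CPM in Ctr1-null cells. That was the highest fold change of this comparison, 0.22 ± 0.11 on the log2 scale (edgeR adjusted p = 0.386), and wild type cells spanned both groups with 21.1, 26.7 and 28.4 CPM.

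BCS against wild type cells, the comparison of both copper restrictions with neither, gave the only call. Mrpl50 fell in BCS cells, 1 of 78 members, against 15.8% of all genes, or 2916 genes, in either direction and 7.28% lower. At an unadjusted p under 0.05 there were 10 members (12.8%), against 32.9% of all genes, and all 10 were lower in BCS cells, against 15.9%. The median log2 fold change was -0.10 with 58 members below 0, and 0.01 over all genes, of which 49.3% were below 0. Fold changes ran from -0.42 for Mrpl50 to 0.17 for Mrps17, and 78.2% of members lay within 0.2 of 0, against 40.9% of all genes. With library totals as the only scaling the members' median was 0.00 and that of all genes 0.10, so the members stayed below the rest by a like amount while their own sign was lost. Without wild type replicate 1, 15 members (19.2%) were called, all lower in BCS cells, and the same fit called 31% of all genes in either direction and 15.3% lower.

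**Figure D3:**
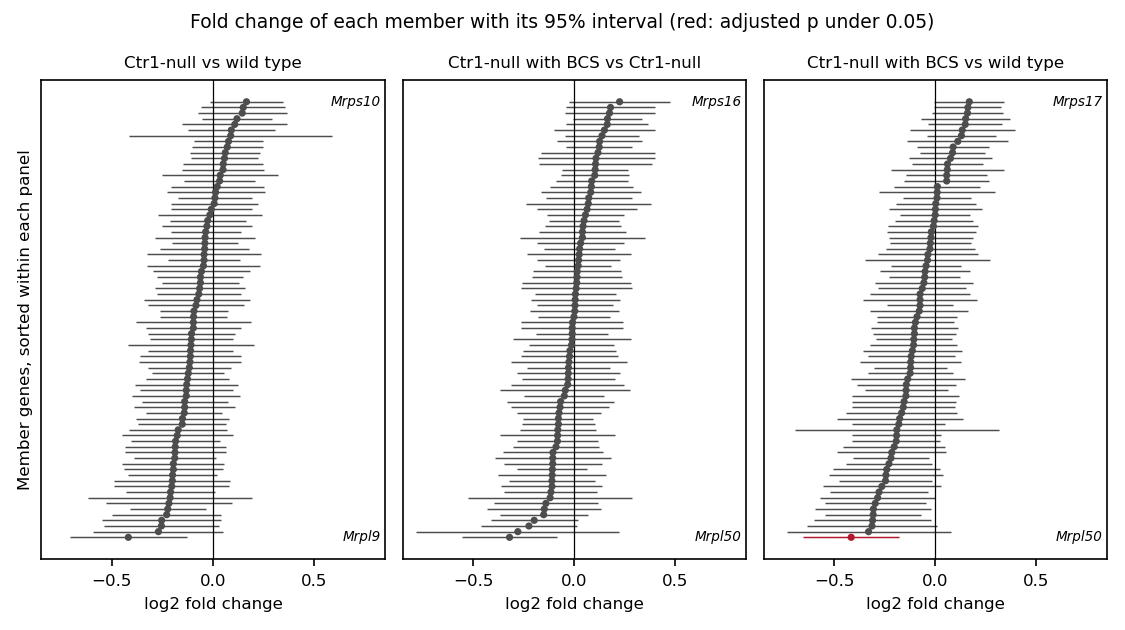
Log2 fold change of each of 78 members with its 95% interval from the edgeR fit, sorted within each comparison, with the lowest and highest member named. The 1 red point is Mrpl50 in BCS against wild type cells; bounds over the 3 panels ran from -0.78 to 0.59.

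Mrpl50 encodes a large subunit protein with no bacterial counterpart and lies at chr4:49512596-49521093 (GRCm38), on the minus strand. It had 26.0, 28.4 and 23.1 CPM in BCS cells, 35.5, 30.2 and 31.2 CPM in Ctr1-null cells, and 31.2, 37.0 and 35.4 CPM in wild type cells. All 3 BCS libraries lay below the other 6, and the Ctr1-null and wild type libraries overlapped. The log2 fold change of BCS cells was -0.42 ± 0.11 against wild type (edgeR adjusted p = 0.0296) and -0.32 ± 0.11 against Ctr1-null cells (edgeR adjusted p = 0.221). Ctr1-null against wild type cells gave -0.10 ± 0.11 (edgeR adjusted p = 0.656). The call in BCS against wild type cells was lost without BCS replicate 1 (edgeR adjusted p = 0.0918), without BCS replicate 3 (0.114), without wild type replicate 2 (0.112) and without wild type replicate 3 (0.109).

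Close to it was Mrpl54, another large subunit protein found in mitochondria but not in bacteria. Mrpl54 had 31.1, 30.7 and 29.0 CPM in BCS cells, 37.3, 35.1 and 33.6 CPM in Ctr1-null cells, and 31.3, 41.0 and 40.2 CPM in wild type cells. The BCS libraries were below all 6 others, wild type replicate 1 by a narrow margin. The log2 fold change was -0.31 ± 0.11 against wild type cells (edgeR adjusted p = 0.0767) and -0.22 ± 0.11 against Ctr1-null cells (edgeR adjusted p = 0.363). DESeq2 called Mrpl54 lower in BCS against wild type cells, where it called 22.1% of all genes in either direction and 11.3% lower.

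**Figure D4:**
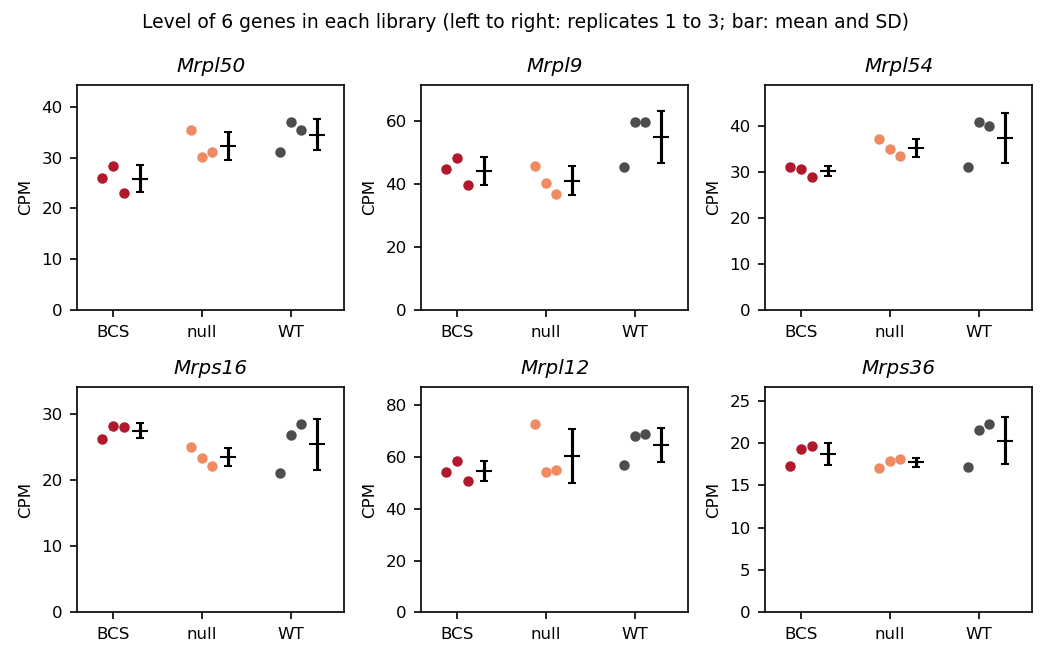
CPM of 6 members in each of 9 libraries, with the mean and SD of each group (n = 3) drawn beside the points. Mrpl50 and Mrpl54 have their 3 BCS libraries below the other 6, while wild type replicate 1 is the lowest wild type library in all 6 panels.

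Groups that did not overlap were seen for 14 members (17.9%) in BCS against wild type cells, compared with 37.1% of all genes. The 10 lower ones, against 17.1% of all genes, were Mrpl15, Mrpl18, Mrpl20, Mrpl28, Mrpl50, Mrpl54, Mrps11, Mrps12, Mrps25 and Mrps35. Mrpl18, a protein of the central protuberance beside the RNA that fills this part of the particle, had 44.9, 50.2 and 41.0 CPM in BCS cells and 50.9, 56.4 and 54.3 CPM in wild type cells. The 4 higher ones, against 20% of all genes, were Mrpl2, Mrpl10, Mrpl27 and Mrps17. Mrpl10, which anchors the stalk that binds translation factors, had 61.8, 62.7 and 62.0 CPM in BCS cells and 52.6, 57.2 and 57.1 CPM in wild type cells, a log2 fold change of 0.16 ± 0.07 (edgeR adjusted p = 0.162).

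The members were then set out by their place in the ribosome, as a description. Large subunit genes had a median log2 fold change of -0.11 in Ctr1-null against wild type cells, -0.01 in BCS against Ctr1-null cells and -0.12 in BCS against wild type cells. Small subunit genes had -0.05, 0.01 and -0.06 in the same order. The 48 members with a bacterial counterpart had a median of -0.08 in BCS against wild type cells, and the 29 without one -0.12. Within each library, the mean of the large subunit genes minus that of the small subunit genes, both relative to wild type, was -0.074, -0.057 and -0.061 (log2) in BCS cells, -0.038, -0.048 and -0.040 in Ctr1-null cells, and -0.035, 0.025 and 0.009 in wild type cells. The 3 groups did not overlap in this small difference, but Ctr1-null replicate 1 at -0.038 lay next to wild type replicate 1 at -0.035. The difference is given as a description of chosen genes and was not tested.

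At the peptidyl transferase region, the 5 members Mrpl2, Mrpl3, Mrpl4, Mrpl16 and Mrpl27 did not move as 1 unit. In BCS against wild type cells the median was 0.13, with 2 of the 5 below 0. Mrpl16, which helps to bind tRNA there, had 29.4, 31.7 and 25.9 CPM in BCS cells and 27.2, 41.3 and 40.9 CPM in wild type cells, a log2 fold change of -0.33 ± 0.18 (edgeR adjusted p = 0.235), while Mrpl27 had 0.16 ± 0.08 (edgeR adjusted p = 0.195). Wild type replicate 1 lay far below the other wild type libraries for Mrpl16. Mrpl18, Mrpl38 and Mrpl58 are among the 6 members assigned here to the central protuberance. All 6 were below 0 in BCS against wild type cells, as were 74.4% of all members. Their median was -0.14, and none passed the test. The log2 fold change of Mrpl58 was -0.001 ± 0.077 and that of Mrpl46 -0.06 ± 0.11, both within their SE of 0. Mrpl58, a peptidyl-tRNA hydrolase that also rescues stalled ribosomes, had 18.1, 17.9 and 17.1 CPM in BCS cells, 19.6, 18.4 and 18.0 CPM in Ctr1-null cells, and 17.2, 17.7 and 18.2 CPM in wild type cells. Its values in the 3 groups overlapped.

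In the stalk, Mrpl12 is the protein that binds elongation factors and has also been reported to bind the mitochondrial RNA polymerase. Mrpl12 had 54.3, 58.5 and 50.6 CPM in BCS cells, 72.5, 53.9 and 54.8 CPM in Ctr1-null cells, and 56.9, 68.0 and 68.7 CPM in wild type cells. Ctr1-null replicate 1 was its highest library, and the log2 fold change of BCS against wild type cells was -0.24 ± 0.13 (edgeR adjusted p = 0.21). Mrpl11, at the base of the stalk, had -0.18 ± 0.14 in the same comparison (edgeR adjusted p = 0.41).

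Around the tunnel exit, where the new protein leaves, 5 of 8 members were below 0 in BCS against wild type cells, with a median of -0.06. Mrpl45, which ties the ribosome to the inner membrane, had 54.2, 55.2 and 47.4 CPM in BCS cells, 63.7, 44.9 and 51.2 CPM in Ctr1-null cells, and 56.8, 50.9 and 48.1 CPM in wild type cells. Its groups overlapped throughout, and without Ctr1-null replicate 1 its log2 fold change in Ctr1-null against wild type cells was -0.12 in place of 0.04. Mrpl44, which has the fold of a ribonuclease III, had 14.6, 13.8 and 13.1 CPM in BCS cells, 14.5, 13.2 and 13.2 CPM in Ctr1-null cells, and 14.0, 15.2 and 15.4 CPM in wild type cells.

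Among small subunit genes, Mrps12, a decoding site protein whose bacterial counterpart is the streptomycin resistance protein, had 14.4, 14.7 and 14.0 CPM in BCS cells and 15.0, 15.6 and 15.7 CPM in wild type cells. The groups did not overlap, but the log2 fold change was only -0.10 ± 0.10 (edgeR adjusted p = 0.487). Mrps22, mutated in human mitochondrial disease, had 24.9, 26.4 and 22.7 CPM in BCS cells, 28.8, 23.1 and 23.3 CPM in Ctr1-null cells, and 24.4, 25.2 and 24.4 CPM in wild type cells, which left no difference beyond the spread. The 3 paralogs related to bacterial S18 were each within 0.2 of 0 in BCS against wild type cells, with log2 fold changes of -0.05 ± 0.08 for Mrps18a, -0.09 ± 0.09 for Mrps18b and 0.15 ± 0.10 for Mrps18c. The first 2 of these changed sign with library totals as the only scaling. Mrps36, the non-ribosomal member, had 17.3, 19.4 and 19.7 CPM in BCS cells, 17.1, 17.9 and 18.2 CPM in Ctr1-null cells, and 17.1, 21.6 and 22.2 CPM in wild type cells.

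Genes that act with the mitochondrial ribosome were described by lists. The 5 ribosomal subunits with other names (Dap3, Ptcd3, Aurkaip1, Chchd1 and Gadd45gip1) gave values of a size near those of the members, with 0 of 5 called by edgeR in each comparison, 1 at an unadjusted p under 0.05 in each comparison against wild type cells, and a median of -0.14 in BCS against wild type cells. At that unadjusted p stood 17.6% of all genes in Ctr1-null and 32.9% in BCS against wild type cells. Ptcd3, an RNA-binding small subunit protein, was called by DESeq2 in BCS against wild type cells, where DESeq2 called 11.3% of all genes lower. Without wild type replicate 1 both Dap3 and Ptcd3 were called by edgeR there. Dap3, a GTP-binding small subunit protein, had 65.7, 64.5 and 63.3 CPM in BCS cells, 65.2, 60.8 and 61.2 CPM in Ctr1-null cells, and 64.5, 76.1 and 71.7 CPM in wild type cells. Of 26 assembly factors 25 were tested, and in BCS against wild type cells 1 rose and 1 fell. Mterf4, which recruits an rRNA methyltransferase to the large subunit, rose by 0.46 ± 0.12 on the log2 scale (edgeR adjusted p = 0.0329), and Fastkd2, an RNA-binding assembly factor, had -0.40 ± 0.10 (edgeR adjusted p = 0.0314). Of 14 translation factors tested, Guf1, the mitochondrial relative of bacterial LepA, rose by 0.27 ± 0.08 (edgeR adjusted p = 0.0422). In BCS against wild type cells, the comparison of these calls, edgeR called 15.8% of all genes in either direction and 7.28% lower. Without wild type replicate 1, edgeR called 1 assembly factor higher and 3 lower in BCS against wild type cells (Malsu1 and Mpv17l2 added) and 2 translation factors higher and 3 lower. In Ctr1-null against wild type cells it then called 1 of each list, Mpv17l2 and Oxa1l, both lower. That fit called 15.3% of all genes lower in BCS against wild type cells and 8.05% lower in Ctr1-null against wild type cells.

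Polrmt, the RNA polymerase that transcribes mitochondrial DNA, stood apart from the members in its own values. Polrmt had 35.7, 38.1 and 35.9 CPM in BCS cells, 36.8, 36.3 and 38.4 CPM in Ctr1-null cells, and 48.2, 47.3 and 50.1 CPM in wild type cells. All 6 libraries without Ctr1 lay below the 3 with it, wild type replicate 1 included. Its log2 fold change was -0.41 ± 0.07 in BCS against wild type cells (edgeR adjusted p = 0.00755) and -0.39 ± 0.07 in Ctr1-null against wild type cells (edgeR adjusted p = 0.0769; 0.0074 without wild type replicate 1). Of 6 genes of mitochondrial transcription, edgeR called only Polrmt with all libraries, in BCS against wild type cells, where 7.28% of all genes were called lower. DESeq2 called Polrmt lower in Ctr1-null against wild type cells, and Polrmt and Tfam, which packages mitochondrial DNA and starts its transcription, lower in BCS against wild type cells. Over all genes DESeq2 called 2.88% lower in Ctr1-null against wild type cells and 11.3% lower in BCS against wild type cells. On leaving out wild type replicate 1, edgeR called Polrmt and Tfam lower in both comparisons, where it called 8.05% and 15.3% of all genes lower.

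Of 10 known regulators of nuclear mitochondrial genes, 3 passed the test in BCS against wild type cells, 2 higher and 1 lower. In that comparison edgeR called 15.8% of all genes in either direction and 7.28% lower. Esrra, an orphan nuclear receptor, rose, with 42.2, 42.6 and 47.4 CPM in BCS cells, 35.7, 34.6 and 33.3 CPM in Ctr1-null cells, and 31.1, 32.4 and 31.6 CPM in wild type cells (log2 fold change 0.48 ± 0.07, edgeR adjusted p = 0.00663). Its coactivator gene Ppargc1a also rose, at low counts, with 3.15, 3.50 and 3.05 CPM in BCS cells, 4.54, 3.43 and 2.85 CPM in Ctr1-null cells, and 1.91, 1.11 and 0.948 CPM in wild type cells (1.29 ± 0.28 for BCS against wild type, edgeR adjusted p = 0.018). All 6 libraries without Ctr1 lay above the 3 with it. In Ctr1-null against wild type cells edgeR did not call Ppargc1a (adjusted p = 0.0927) but did so without wild type replicate 1, as did DESeq2 with all libraries. Pprc1, a related coactivator, fell, with 176, 186 and 147 CPM in BCS cells, 211, 195 and 181 CPM in Ctr1-null cells, and 219, 235 and 255 CPM in wild type cells (-0.48 ± 0.10, edgeR adjusted p = 0.0191). Nrf1, Gabpa and Yy1, whose motifs were searched above, did not pass the test (edgeR adjusted p of 0.801, 0.31 and 0.955).

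The mitochondrial transcripts themselves took another course from the ribosomal protein genes. The 13 mitochondrial mRNAs had a median log2 fold change of 0.33 in Ctr1-null against wild type cells, with 0 of 13 below 0, and of -0.30 in BCS against Ctr1-null cells, with 11 of 13 below 0. These 2 comparisons share the Ctr1-null libraries, and no single mRNA passed the edgeR test in either. An unadjusted edgeR p under 0.05 was seen for 8 and 9 of the 13, against 17.6% and 14.7% of all genes. DESeq2 called 6 higher in Ctr1-null than in wild type cells and 6 lower in BCS than in Ctr1-null cells, while limma-voom called 0. Of all genes DESeq2 called 5.64% and 3.86% in either direction in these 2 comparisons. Without wild type replicate 1, edgeR called 7 higher in Ctr1-null than in wild type cells, against 17.3% of all genes in either direction. It then called 2 lower in BCS than in Ctr1-null cells, against 0.972% of all genes in either direction. In BCS against wild type cells mt-Co2, a copper-binding subunit of cytochrome c oxidase, rose by 0.43 ± 0.11 (edgeR adjusted p = 0.0346) and mt-Nd2, a complex I subunit, had -0.37 ± 0.10 (edgeR adjusted p = 0.0354). The other mRNAs were not called there, where edgeR called 15.8% of all genes in either direction. The rRNA mt-Rnr2 of the large subunit had 697, 634 and 770 CPM in BCS cells, 1133, 777 and 699 CPM in Ctr1-null cells, and 767, 1112 and 936 CPM in wild type cells. Ctr1-null replicate 1 and wild type replicate 2 were its highest libraries, and neither rRNA passed the edgeR test in any comparison with all libraries. Leaving out wild type replicate 1, edgeR called mt-Rnr2 lower in BCS than in wild type cells, where it called 15.3% of all genes lower.

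Cytosolic ribosomal protein genes, like the mitochondrial ones, had means above the wild type average in Ctr1-null replicate 1 and wild type replicates 2 and 3 and below it in the other 6 libraries. The mean of 80 such genes, relative to wild type, was -0.14, -0.11 and -0.16 in BCS, 0.04, -0.24 and -0.32 in Ctr1-null, and -0.26, 0.12 and 0.14 in wild type libraries. Of these genes Rps12 (-0.70 ± 0.19, edgeR adjusted p = 0.035) and Rpl10a (-0.29 ± 0.08, edgeR adjusted p = 0.0454) fell in BCS against wild type cells. They were 2.5% of the list, against 7.28% of all genes called lower. When wild type replicate 1 was left out, 23 of the 80 (28.8%) were called there and 21 (26.2%) in Ctr1-null against wild type cells, all lower, where 15.3% and 8.05% of all genes were called lower. The 81 nuclear subunits of respiratory complexes had a median of -0.09 in Ctr1-null against wild type cells, 0.06 in BCS against Ctr1-null cells and -0.01 in BCS against wild type cells, where 4 rose and 0 fell. In the last comparison edgeR called 15.8% of all genes in either direction and 7.28% lower. Without wild type replicate 1, 6 rose and 18 fell there, and in Ctr1-null against wild type cells 2 rose and 18 fell, against 0 called with all libraries. The 18 that fell were 22.2% of the list each time, where 15.3% and 8.05% of all genes were called lower. Of the 4 that rose in BCS against wild type cells with all libraries, Ndufa4l2 and Cox6a2 had the lowest p. Ndufa4l2, a hypoxia-induced relative of an oxidase subunit, had 1.42, 1.04 and 1.41 CPM in BCS cells, 0.238, 0.446 and 0.454 CPM in Ctr1-null cells, and 0.395, 0.270 and 0.242 CPM in wild type cells. Cox6a2, the muscle form of an oxidase subunit, stayed under 0.33 CPM in all 9 libraries. Of the calls in BCS against wild type cells given for these lists, those of Mterf4, Fastkd2, Guf1, Ppargc1a, Pprc1, mt-Co2, mt-Nd2, Rps12 and Rpl10a were each lost on leaving out any 1 of BCS replicate 1, BCS replicate 3, wild type replicate 2 or wild type replicate 3, with edgeR adjusted p of 0.0564 to 0.183, while those of Polrmt and Esrra held without any single library. With the authors' factors as offsets the calls of Mterf4, Fastkd2, Guf1, Rps12 and Rpl10a were lost (edgeR adjusted p of 0.0691 to 0.275), with library size only those of Fastkd2, mt-Nd2 and Rpl10a (0.0778 to 0.0916), and with upper-quartile factors those of mt-Nd2 and Rpl10a (0.0526 and 0.0608). With the replicate block 7 of these calls were lost, all but those of Ppargc1a, Pprc1, Polrmt and Esrra.

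**Figure D5:**
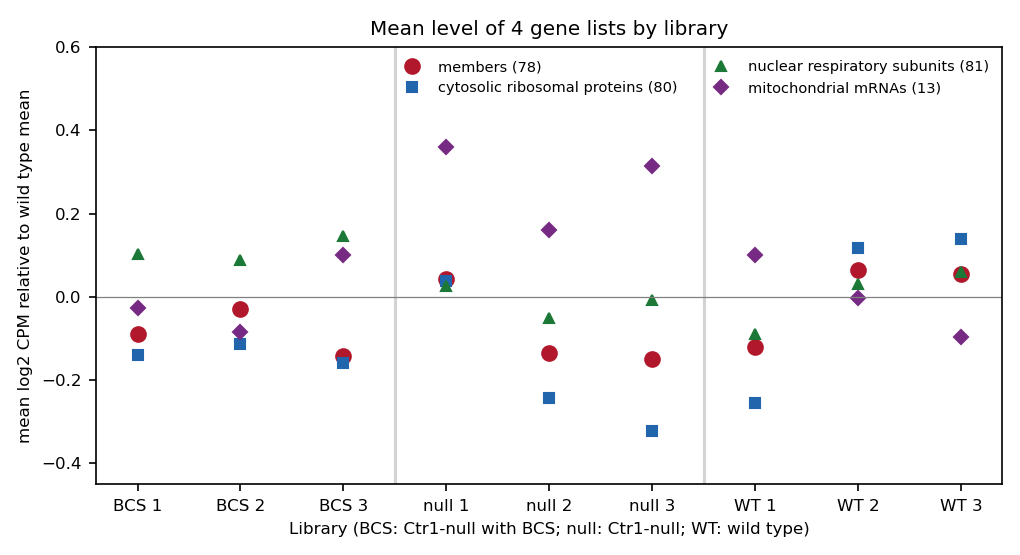
Mean log2 CPM relative to wild type of the 78 members and of 3 related lists in each of 9 libraries. Members (red circles) and cytosolic ribosomal proteins (blue squares) are both below 0 in wild type replicate 1 and above 0 in Ctr1-null replicate 1, while mitochondrial mRNAs (purple diamonds) are highest in the 3 Ctr1-null libraries.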

How the data were processed

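RNA of 9 libraries was prepared with an Illumina TruSeq RNA kit, per the labels' protocols. The submitters' processing notes list GRCm38 as the build and DESeq2, FastQC, Salmon and STAR as tools, with neither versions nor roles. The authors deposited estimated counts per gene, which they had rounded and had not normalised. The authors also deposited a scaled signal, equal to those counts over a factor for each gene and library; it served only for an alternative that takes over those factors. Whether counting used strand is not given in the sources used here.

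Symbols came from GENCODE M21 for 52566 of 52661 identifiers. After the edgeR filter filterByExpr (minimum count 10, minimum total 15) and TMM scaling, a quasi-likelihood model of all 9 libraries in 3 groups was fitted with edgeR 4.0.16 in R 4.3.3; it had 6 residual degrees of freedom, and the common BCV was 0.169. The 2-sided p-values were adjusted over all 18408 genes by Benjamini and Hochberg. A standard error is the absolute log2 fold change over the root of the F statistic. CPM uses TMM-scaled totals, and library means of log2 CPM have a prior count of 1. The edgeR fit was also run on simulated counts with planted fold changes. Those were larger than the members' own, and counts were drawn independently for each gene. That run therefore cannot tell how well changes of the members' size are found here. Counts of 0 allow 3 counts, 0.0524 to 0.077 CPM, for counting error only.

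The members and lists were chosen with earlier results of these data known. The naming rule took members called in any comparison, the 10 highest and 10 lowest in each, the 5 highest and 5 lowest per length, 20 members with further known roles, and from each list up to 2 called genes in each direction or the gene with the smallest p; the text gives those the results turn on. Mrpl15, Mrpl20, Mrpl28, Mrpl37, Mrpl38, Mrps25 and Mrps35 are named for group overlap or place, and Aurkaip1, Chchd1, Gadd45gip1, Nrf1, Gabpa, Yy1, Tfam, Malsu1, Mpv17l2 and Oxa1l as list members, whatever the rule, the last 4 after their values were seen. As alternatives, edgeR was run with size factors of DESeq2, with upper-quartile factors, with library size alone, with the authors' factors, with no filter or with a stricter one (1 CPM in 3 samples), with a replicate block, on the compared groups alone and without each library, and DESeq2 1.42.0 and limma-voom (limma 3.58.1) were run beside it. Figures were drawn with matplotlib 3.10.9. No sample was left out.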

Additional observations from a re-analysis of the deposited data

How the results depend on the processing

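Across the alternatives, members called in Ctr1-null against wild type cells numbered 0, and 0 to 9 when single libraries were left out; in BCS against Ctr1-null cells there were 0 under each. In BCS against wild type cells the 1 member called became 3 with library size only (Mrpl4 and Mrpl10 higher, Mrpl50 lower), 2 with DESeq2 (Mrpl50 and Mrpl54), and 0 to 15 when libraries were left out; the members' median became 0.00 (0.004) with library size only. Of all genes in that comparison, library size only called 15.5% and DESeq2 22.1% in either direction. With the replicate block 0 members were called there, Mrpl50 having an edgeR adjusted p of 0.0628. The labels do not say whether a replicate number marks a shared culture or day. Correlations of deviations from the group means ran from -0.291 to 0.248 between same-numbered libraries. Between differently numbered libraries of 2 groups they ran from -0.258 to 0.383. With 3 libraries per group these values cannot decide whether the numbers pair the libraries.

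Genes called over all genes in Ctr1-null against wild type cells, 2 as reported, were 4 with DESeq2's, upper-quartile, library-size or the authors' factors or the stricter filter, 265 without a filter, 1039 with DESeq2, 6 with limma-voom, 1 with the replicate block or with only the groups compared, and 1 to 3254 without single libraries (3254 without wild type replicate 1). In BCS against Ctr1-null cells, 10 became 114 without a filter, 711 with DESeq2, 2 with the replicate block and 0 to 183 without single libraries. In BCS against wild type cells, 2916 became 4068 with DESeq2, 1543 with the replicate block and 568 to 5840 without single libraries. The cause was not tested. The median per-length level became 28.5 with mean transcript length.

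Of 109 fold changes of named members, 35 changed sign in some alternative, with 0 of these changes in a gene called before or after. Among fold changes printed here, library size only gave 0.052 for Mrps18a and 0.007 for Mrps18b in BCS against wild type cells and 0.026 for Mrpl45 in BCS against Ctr1-null cells. When single libraries were left out, Mrpl45 ran from -0.115 to 0.145 in Ctr1-null against wild type cells and from -0.135 to 0.124 in BCS against Ctr1-null cells.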
